A study of Mus musculus with 5 samples.

Results

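The circadian clock genes Per1, Per2, Per3, Cry1, Cry2, Arntl, Clock, Nr1d1, Nr1d2 and Dbp were followed in hippocampal RNA of mice before and after seizures. They were taken by gene symbol, as a list put together with earlier results of these data known, and make up 10 of the 55385 genes listed in each library. The 5 libraries came from the hippocampus of male C57/bl6 mice aged 3 months. The control library was from untreated mice and carried the time label 0 h. The remaining 4 libraries followed an intraperitoneal injection of kainic acid at 20 mg/kg, which opens kainate-type glutamate receptors and provokes seizures, with sacrifice 1 h (1 library), 4 h (2 libraries, here replicate 1 and replicate 2) or 8 h (1 library) after seizure onset. All mice were in the dark phase of a dark-light schedule when they were handled, and the labels describe the time points as identical between experiments, but no hour of injection or sacrifice is given for any library. No control library of a later hour was analysed here, so time of day and time after seizure onset cannot be told apart in any of these comparisons. The sources do not say whether a library held RNA of 1 mouse or of several, so that p-values measure the spread of the pair at 4 h, which may be technical.

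The circadian clock is a transcriptional feedback loop that runs in most cells of the body, the hippocampus included. The activators CLOCK and ARNTL (also called BMAL1) pair and bind E-box elements at the Per, Cry, Nr1d and Dbp genes, and the PER and CRY proteins assemble into a complex that represses this pair. The nuclear receptors NR1D1 and NR1D2 (REV-ERB alpha and beta) repress Arntl through ROR elements, and DBP drives output genes through D-box elements. Per1 is in addition an early response gene of neurons, whose promoter answers to cAMP and calcium signals, which ties the loop to neuronal activity.

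Between 16612225 and 19109204 reads were counted on genes per library, and reads on no annotated feature made up 24.7% to 33.1% of the deposited reads, with the highest share in replicate 1 at 4 h. The summed level of 3 neuronal markers (Snap25, Rbfox3 and Syt1) lay between 2476 and 3035 CPM (counts scaled to a common library total after normalization), and the 4 markers of hippocampal neurons (Prox1, Zbtb20, Neurod6 and Wfs1) between 620 and 923 CPM. Within the latter sum the markers went apart at 4 h. Their values are given in the order control, 1 h, replicate 1, replicate 2 and 8 h. Neurod6, of pyramidal neurons, stood at 144, 145, 60.9, 67.1 and 104 CPM. Prox1, of granule cells, stood at 60.0, 67.2, 172, 120 and 77.1 CPM. Wfs1 stood at 84.7, 79.4, 76.7, 88.5 and 78.8 CPM, without the lower level of Neurod6 at 4 h. Zbtb20 stood at 331, 372, 613, 379 and 502 CPM. Astrocyte markers (Aqp4, Gfap and Slc1a2) summed to between 2969 and 3797 CPM. Within this sum Gfap stood at 221, 272, 596, 510 and 587 CPM in the same order. Gfap was thus higher in the 3 libraries in which Cry1 and Arntl were higher and Per3 and Dbp lower. The other astrocyte markers did not share this course at 8 h. Aqp4 stood at 133.1, 146.2, 213.5, 177.3 and 128.5 CPM, and Slc1a2 at 2615, 2731, 2987, 2752 and 2640 CPM. Microglial markers (Cx3cr1, Csf1r and P2ry12) summed to between 121 and 150 CPM, and did not share a course: P2ry12 was lowest in the pair at 4 h (13.9 and 17.8 against 31.9 CPM in the control), Cx3cr1 was highest at 8 h (36.7 against 32.1 CPM) and Csf1r stayed between 74.4 and 86.5 CPM. Endothelial markers (Cldn5, Pecam1 and Flt1) summed to between 63.6 and 107 CPM. The part of these cell types in the clock values was not tested. Choroid plexus markers (4 genes: Ttr, Kcne2, Folr1 and Clic6) summed to 3863 CPM in the control, 1622 at 1 h, 19.7 in replicate 1, 4113 in replicate 2 and 2989 at 8 h, with Kcne2 and Folr1 at 0.178 and 0.416 CPM in replicate 1. Thalamic markers (3 genes: Tcf7l2, Lef1 and Prkcd) summed to 33.2, 34.2, 220, 86.4 and 28.3 CPM in the same order. Replicate 1 at 4 h therefore stands apart from the other libraries in its choroid plexus and thalamic markers, and the levels at 4 h are given for both replicates. Fitted differences at 4 h join the pair and are also given without replicate 1, as values with no test. The early response genes checked the treatment: Fos, the classic marker of recent neuronal activity, stood at 10.8 CPM in the control, 999 at 1 h, 519 and 70.4 in the replicates at 4 h and 17.2 at 8 h.

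After seizures the clock genes went in different directions, and their order in time differed. Per1 was highest at 1 h, at 4.70 times the control, and Per2 in the pair at 4 h, at 2.46 and 2.04 times. Cry1 and Arntl were level with or close to the control at 1 h and higher in all 3 later libraries, between 1.70 and 2.65 times. Dbp, Per3, Nr1d2 and Nr1d1 were close to the control at 1 h and lowest at 8 h, at 0.210, 0.365, 0.402 and 0.378 times. Clock stayed between 0.966 and 1.24 times the control in every library. These are differences between libraries, of which only the 4 h time point had a replicate. In the edgeR quasi-likelihood test across 19768 genes, none of the 10 clock genes passed an adjusted p of 0.05 at any time point (Benjamini-Hochberg adjustment), and the 95% interval of each difference is therefore given beside its adjusted p. In bulk tissue, fewer cells of a type and less RNA per cell cannot be told apart.

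**Figure D1:**
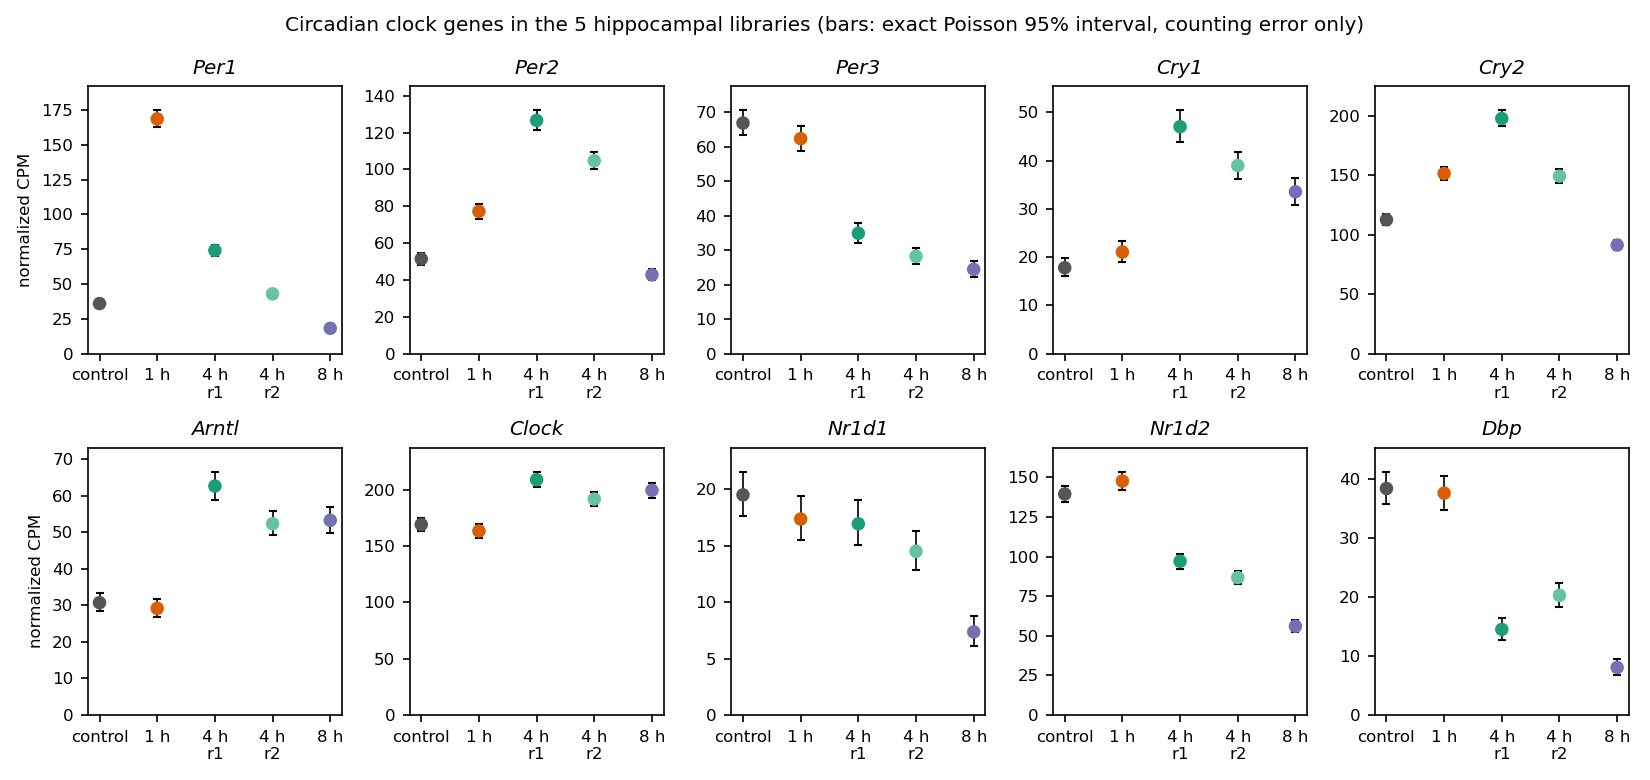
Normalized level in CPM (y axis, from 0) of each clock gene in the control library, the library at 1 h, replicates 1 and 2 at 4 h (r1 and r2) and the library at 8 h; points are single libraries and bars the exact Poisson 95% interval, which covers counting error only. Per1 stands at 169 CPM at 1 h against 35.9 in the control, while Dbp stands at 8.04 CPM at 8 h against 38.3.

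**Figure D2:**
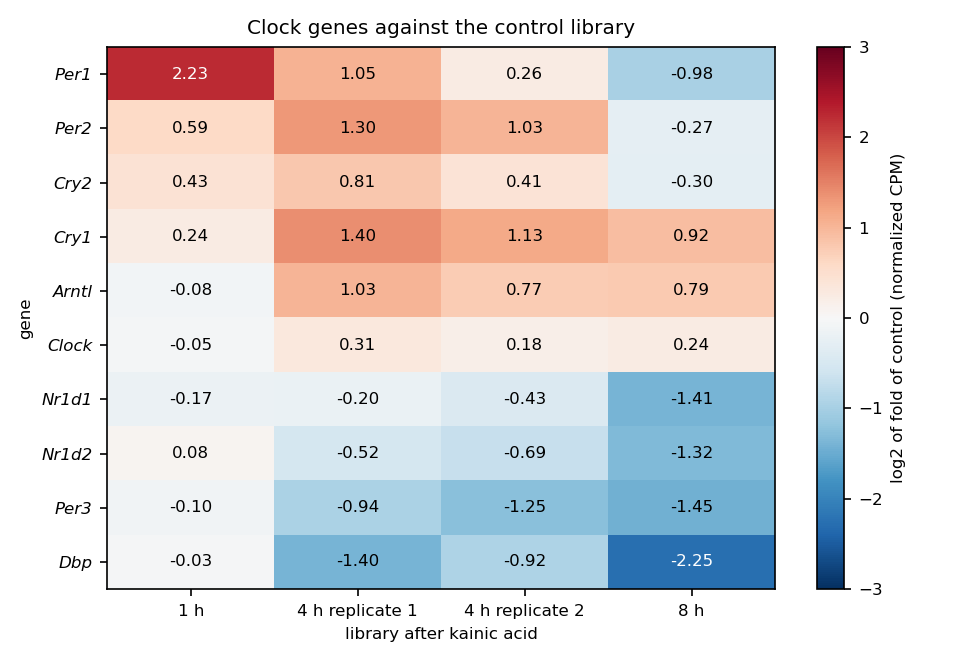
Level of each clock gene (rows) in each library after kainic acid (columns) as log2 of the fold of the control library, printed in the cells and shown in red above and blue below 0. Per1 has its highest value at 1 h (2.23), Cry1 and Arntl are above 0 from 4 h on, and Dbp has the lowest value of the panel at 8 h (-2.25).

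Among the PER, CRY and REV-ERB repressors, Per1 (ENSMUSG00000020893.17, chr11:69095217-69109960, plus strand, GRCm38) had the steepest early response. It had 714 counts in the control and 2962 at 1 h, then 1247 and 810 in the replicates at 4 h and 318 at 8 h, or 35.9, 169, 74.1, 42.8 and 18.1 CPM after normalization. The 1 h library was far above all others, both 4 h libraries were above the control, and the 8 h library was the lowest of the 5. The fold of the control was 4.70 at 1 h (95% counting interval 4.33 to 5.11), 2.06 and 1.19 at 4 h and 0.506 at 8 h (0.442 to 0.578). The edgeR log2 fold change was 2.23 at 1 h (SE 0.41, 95% interval 1.21 to 3.25, adjusted p = 1), 0.70 at 4 h (SE 0.35, adjusted p = 0.501) and -0.98 at 8 h (SE 0.40, adjusted p = 1). The 4 h value of Per1 was 0.26 without replicate 1 and 1.04 without replicate 2, so that it depends on which replicate is used. At 1 h the call depended on the analysis, with an adjusted p under 0.05 in 3 of 6 (library size alone, no filter on low counts, and DESeq2) and a range from 2.18e-14 to 1. The Per1 gene has separate start sites, and the RefSeq promoter table of GRCm38.p6 holds a window for each of a pair of them, from 250 bases before to 50 bases after the start. Both are shown because Per1, of the clock genes named at the outset, was furthest from the control at 1 h. Capitals mark the E-box, the 5-base part of the cAMP response element and the core of the element bound by ROR and REV-ERB receptors. The upstream window, chr11:69098699-69098998, holds the letters CACGTG at position -166 from the start, TGACG at -246 and, on the other strand, AGGTCA at -137. The window of the downstream start, chr11:69099902-69100201, holds TGACG at -132.
Per1, upstream start, plus strand: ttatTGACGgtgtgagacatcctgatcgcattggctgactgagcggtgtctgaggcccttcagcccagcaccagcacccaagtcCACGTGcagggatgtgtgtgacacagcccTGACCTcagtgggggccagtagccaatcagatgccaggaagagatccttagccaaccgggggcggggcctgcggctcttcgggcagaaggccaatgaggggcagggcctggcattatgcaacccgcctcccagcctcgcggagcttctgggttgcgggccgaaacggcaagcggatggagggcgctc
Per1, downstream start, plus strand: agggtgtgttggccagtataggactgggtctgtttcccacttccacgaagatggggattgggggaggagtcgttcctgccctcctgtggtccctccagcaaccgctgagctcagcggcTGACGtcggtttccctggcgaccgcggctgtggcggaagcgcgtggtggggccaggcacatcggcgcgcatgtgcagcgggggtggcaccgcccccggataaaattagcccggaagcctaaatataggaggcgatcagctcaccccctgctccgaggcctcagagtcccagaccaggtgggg

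Per2, which acts with Per1 and the CRY proteins in the repressor complex, reached its highest level later. Per2 (ENSMUSG00000055866.9, chr1:91415982-91459324, minus strand) stood at 51.4 CPM in the control and 77.2 at 1 h, then 127 and 105 in the pair at 4 h and 42.7 at 8 h. Both 4 h libraries were above the 1 h library, which was above the control, and the 8 h library was the lowest. Its log2 difference from the control was 0.59 at 1 h (SE 0.22, adjusted p = 1), 1.17 at 4 h (SE 0.20, 95% interval 0.66 to 1.68, adjusted p = 0.255) and -0.27 at 8 h (SE 0.23, adjusted p = 1). At 4 h the adjusted p of Per2 passed 0.05 in 3 of 6 analyses, with a range from 2.35e-05 to 0.327.

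Per3, the family member least needed for the rhythm itself, differed from its paralogs. Per3 (ENSMUSG00000028957.12, chr4:151003652-151044665, minus strand) stood at 66.8 CPM in the control and 62.3 at 1 h, then 34.9 and 28.2 in the pair at 4 h and 24.4 at 8 h. The 3 later libraries did not overlap the control and 1 h libraries, which were close to each other. The fold of the control was 0.522 and 0.422 in the replicates at 4 h and 0.365 at 8 h (counting interval 0.327 to 0.408). On the log2 scale the difference from the control was -0.10 at 1 h, then -1.08 at 4 h (SE 0.21, 95% interval -1.62 to -0.55, adjusted p = 0.261) and -1.45 at 8 h (SE 0.26, 95% interval -2.10 to -0.80, adjusted p = 0.868). At 4 h, 2 of 6 analyses gave Per3 an adjusted p under 0.05 (library size alone and no filter), and at 8 h 1 of 6 did (no filter). Its promoter window, chr4:151044616-151044915, is shown because it was the only one of the windows with a D-box (TTATGTAA, in capitals), the element bound by DBP and NFIL3, at positions -205 and -158.
Per3, minus strand: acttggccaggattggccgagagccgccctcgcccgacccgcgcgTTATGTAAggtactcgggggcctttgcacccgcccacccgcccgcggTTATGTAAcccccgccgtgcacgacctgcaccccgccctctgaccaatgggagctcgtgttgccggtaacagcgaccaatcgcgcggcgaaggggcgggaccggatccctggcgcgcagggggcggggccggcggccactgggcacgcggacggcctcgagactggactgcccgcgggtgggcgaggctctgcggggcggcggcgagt

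The cryptochromes Cry1 and Cry2, the strongest repressors of CLOCK and ARNTL, were both higher in the pair at 4 h, but parted at 8 h. Cry1 (ENSMUSG00000020038.10, chr10:85131700-85185064, minus strand) stood at 17.8 CPM in the control and 21.1 at 1 h, then 47.0 and 39.0 in the pair at 4 h and 33.5 at 8 h. All 3 later libraries were above the control and 1 h libraries. On the log2 scale it differed from the control by 0.24 at 1 h, 1.27 at 4 h (SE 0.24, 95% interval 0.66 to 1.88, adjusted p = 0.259) and 0.91 at 8 h (SE 0.27, 95% interval 0.24 to 1.59, adjusted p = 1). Cry2 (ENSMUSG00000068742.11, chr2:92403646-92434043, minus strand) stood at 113 CPM in the control and 152 at 1 h, then 198 and 149 in the pair at 4 h and 91.3 at 8 h. Replicate 2 at 4 h was level with the 1 h library, and the 8 h library was the lowest. The log2 fold change of Cry2 was 0.43 at 1 h (adjusted p = 1), 0.62 at 4 h (SE 0.22, 95% interval 0.06 to 1.19, adjusted p = 0.403) and -0.30 at 8 h (adjusted p = 1). The Cry1 window, chr10:85185005-85185304, is shown for its neighbouring E-box (CACGTG, at -60) and E-prime box (CACGTT on the other strand, at -79), with TGACG at -8, all in capitals.
Cry1, minus strand: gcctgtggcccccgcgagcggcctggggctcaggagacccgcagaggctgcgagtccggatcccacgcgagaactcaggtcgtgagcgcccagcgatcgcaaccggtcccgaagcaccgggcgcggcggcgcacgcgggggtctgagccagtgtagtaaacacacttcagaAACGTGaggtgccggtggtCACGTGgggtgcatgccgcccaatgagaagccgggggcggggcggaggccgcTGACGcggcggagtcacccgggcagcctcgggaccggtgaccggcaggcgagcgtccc

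The activators differed from each other. Arntl, which encodes the partner of CLOCK and is the member whose loss stops the clock, was higher from 4 h on. Arntl (ENSMUSG00000055116.8, chr7:113207465-113314126, plus strand) stood at 30.8 CPM in the control and 29.2 at 1 h, then 62.7 and 52.4 in the pair at 4 h and 53.3 at 8 h. The 3 later libraries lay together, above the control and 1 h libraries, which lay together as well. The difference on the log2 scale was -0.08 at 1 h, then 0.90 at 4 h (SE 0.22, 95% interval 0.36 to 1.45, adjusted p = 0.314) and 0.79 at 8 h (SE 0.24, 95% interval 0.18 to 1.40, adjusted p = 1). Clock (ENSMUSG00000029238.11, chr5:76209868-76304792, minus strand), a transcription factor with histone acetyltransferase activity, stood at 169 CPM in the control and 163 at 1 h, then 209 and 192 in the pair at 4 h and 199 at 8 h. Its libraries spanned the narrowest range of the 10 genes relative to the control. The log2 fold change of Clock was -0.05 at 1 h (95% interval -0.52 to 0.42), 0.24 at 4 h (-0.17 to 0.66, adjusted p = 0.605) and 0.24 at 8 h (-0.23 to 0.71, adjusted p = 1). These intervals give the differences compatible with the data and set no limit of detection. The far larger difference of Per1 at 1 h (2.23) did not pass an adjusted p of 0.05 either.

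The REV-ERB genes, whose products repress Arntl, were both lowest at 8 h. Nr1d2 (ENSMUSG00000021775.11, chr14:18204054-18239127, minus strand) stood at 140 CPM in the control and 148 at 1 h, then 97.0 and 86.8 in the pair at 4 h and 56.1 at 8 h. The libraries fell into the control with 1 h, then the 4 h pair, then 8 h, without overlap. Its log2 fold change from the control was 0.08 at 1 h, then -0.60 at 4 h (SE 0.17, 95% interval -1.03 to -0.18, adjusted p = 0.347) and -1.31 at 8 h (SE 0.20, 95% interval -1.82 to -0.81, adjusted p = 0.756). Nr1d1 (ENSMUSG00000020889.11, chr11:98767932-98775333, minus strand) was less abundant, with 388, 305, 285, 274 and 129 counts, or 19.5, 17.4, 16.9, 14.5 and 7.36 CPM. The 8 h library was apart from the other 4, which lay close together. At 4 h its log2 fold change was -0.31 (95% interval -0.95 to 0.33, adjusted p = 0.664), and at 8 h -1.39 (SE 0.31, 95% interval -2.18 to -0.63, adjusted p = 0.882). At 8 h, 1 of 6 analyses (no filter) gave Nr1d1 and Nr1d2 an adjusted p under 0.05, at 0.0213 and 1.91e-05. Of the Nr1d1 exons, 8.55% (263 bases) lie opposite exons of Thra, a thyroid hormone receptor gene at 428 to 594 CPM, and the strand setting of the counting is not given. The Nr1d1 window, chr11:98775328-98775627, is shown for its E-prime box (CACGTT on the other strand, at -28, in capitals).
Nr1d1, minus strand: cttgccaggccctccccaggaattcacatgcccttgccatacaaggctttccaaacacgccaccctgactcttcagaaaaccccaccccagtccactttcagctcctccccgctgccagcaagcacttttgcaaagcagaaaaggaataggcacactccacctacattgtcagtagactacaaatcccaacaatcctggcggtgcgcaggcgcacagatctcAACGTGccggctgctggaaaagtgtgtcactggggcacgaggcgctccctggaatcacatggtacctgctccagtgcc

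Dbp, an output factor that CLOCK and ARNTL activate through E-boxes, had the lowest level relative to the control of all 10 genes. Dbp (ENSMUSG00000059824.12, chr7:45705088-45710203, plus strand) had 763 counts in the control and 660 at 1 h, then 244 and 383 in the pair at 4 h and 141 at 8 h, or 38.3, 37.6, 14.5, 20.3 and 8.04 CPM. The control and 1 h libraries agreed within counting error, both 4 h libraries were below them, and the 8 h library was the lowest. It stood 2.65-fold and 1.89-fold below the control in the replicates at 4 h and 4.77-fold below it at 8 h (fold of control 0.210, counting interval 0.174 to 0.251). Its log2 fold change from the control was -0.03 at 1 h (95% interval -0.84 to 0.78), -1.14 at 4 h (SE 0.27, 95% interval -1.83 to -0.45, adjusted p = 0.309) and -2.24 at 8 h (SE 0.35, 95% interval -3.12 to -1.39, adjusted p = 0.756). At 8 h the call depended on the analysis, with an adjusted p under 0.05 in 2 of 6 (no filter and DESeq2) and a range from 3.38e-08 to 0.997. Of the Dbp exons, 18.0% (539 bases) lie opposite exons of Sphk2, a sphingosine kinase gene at 16.1 to 22.9 CPM. The Sphk2 level was 22.9 CPM in the control and 16.1 at 8 h, and its part in the Dbp counts was not tested.

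The background over all genes sets how these values can be read. With the edgeR test, 0 of 10 clock genes passed an adjusted p of 0.05 at 1, 4 or 8 h, where 0.0%, 0.00506% and 0.0% of the 19768 genes tested did. At an unadjusted p under 0.05 the clock genes numbered 2 at 1 h (Per1 and Per2), 7 at 4 h (4 higher and 3 lower) and 6 at 8 h (2 higher and 4 lower), where 2.42%, 11.6% and 4.51% of all genes had such a p. The higher genes at 4 h were Per2, Cry1, Cry2 and Arntl and the lower ones Per3, Nr1d2 and Dbp. At 8 h Cry1 and Arntl were higher, and Per3, Nr1d1, Nr1d2 and Dbp lower. DESeq2 passed Per1 at 1 h, Per2 at 4 h and Dbp at 8 h at an adjusted p of 0.05, whereas limma-voom passed no clock gene. With no filter on low counts, Per1 passed at 1 h, and Per2, Per3, Cry1, Arntl and Dbp at 4 h. At 8 h that setting passed Per1, Per3, Nr1d1, Nr1d2 and Dbp. Over all genes it passed 285, 1300 and 279 at 1, 4 and 8 h. At 1, 4 and 8 h the median log2 fold change of the 10 genes was 0.03, 0.43 and -0.64, against -0.01, 0.01 and 0.01 over all genes. With genes on both sides of the control, these medians describe no common direction.

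By size alone, without a test, a level at least 1.5-fold from the control was counted, at 4 h in both replicates. At 1 h 2 of 10 clock genes were higher by this measure (Per1, and Per2 just inside that size) and 0 lower, against 10.5% and 8.77% of all genes tested and 4.98% and 2.71% of the 12455 genes with at least 100 counts in a library, as all 10 clock genes had. At 4 h 3 were higher (Per2, Cry1 and Arntl) and 2 lower (Per3 and Dbp), against 9.88% and 6.09% of all genes and 6.92% and 4.49% of the better covered ones. At 8 h 2 were higher (Cry1 and Arntl) and 5 lower (Per1, Per3, Nr1d1, Nr1d2 and Dbp), against 13.8% and 8.66% of all genes and 5.56% and 5.48% of the better covered ones. Nr1d2 stood just outside the size at 4 h in 1 replicate, at 0.696 and 0.622 times the control.

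The time points were also set against each other, with the control left out of the difference. From 1 h to 4 h, 3 clock genes were higher (Per2, Cry1 and Arntl) and 4 lower (Per1, Per3, Nr1d2 and Dbp) at an unadjusted p under 0.05, and 0 of 10 passed the adjusted p. Over all genes 7.94% had such an unadjusted p and 0.00506% passed. Cry2 lay at 0.20, and at -0.02 without replicate 1 at 4 h. The values were -1.53 for Per1 (adjusted p = 0.469), 0.58 for Per2 (adjusted p = 0.573), -0.98 for Per3 (adjusted p = 0.475), 1.03 for Cry1 (adjusted p = 0.497), 0.98 for Arntl (adjusted p = 0.484), -0.68 for Nr1d2 (adjusted p = 0.497) and -1.11 for Dbp (adjusted p = 0.497) on the log2 scale. Without replicate 1 they were -1.97, 0.44, -1.14, 0.89, 0.84, -0.77 and -0.89 in the same order of genes. From 4 h to 8 h all 10 estimates were negative in the fit of all libraries, with a median of -0.82 against -0.02 over all genes, and 6 had an unadjusted p under 0.05, where 8.73% of all genes did. The estimates were -1.43 for Per2 (adjusted p = 0.463), -1.68 for Per1 (adjusted p = 0.463), -1.10 for Dbp (adjusted p = 0.476), -1.08 for Nr1d1 (adjusted p = 0.476), -0.93 for Cry2 (adjusted p = 0.474) and -0.71 for Nr1d2 (adjusted p = 0.474). Without replicate 1 these were -1.29, -1.23, -1.32, -0.97, -0.71 and -0.63 in the same order of genes. Per3, Cry1, Arntl and Clock lay at -0.37, -0.36, -0.11 and -0.01, and with counts scaled by library size alone Arntl and Clock lay at 0.04 and 0.14. Without replicate 1 at 4 h Per3, Cry1, Arntl and Clock lay at -0.21, -0.22, 0.03 and 0.06. Adjusted, 0 of 10 clock genes and 0.0% of all genes passed from 4 h to 8 h. At the same threshold DESeq2 passed Per1 in both of these comparisons and Per2 from 4 h to 8 h, and limma-voom passed no clock gene.

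Ratios of 2 clock genes within a library need no normalization between libraries. The count of Dbp relative to Arntl was 1.25 in the control (binomial 95% interval 1.12 to 1.39), 1.29 at 1 h, then 0.231 and 0.387 in the pair at 4 h and 0.151 at 8 h (0.126 to 0.180). Nr1d1 relative to Arntl, a repressor against its target, was 0.634 in the control and 0.595 at 1 h, then 0.270 and 0.277 in the pair at 4 h and 0.138 at 8 h. In both ratios the control and 1 h libraries lay together and the 3 later libraries below them. The ratio of Per1 to Per2 was 0.698 in the control and 2.18 at 1 h, then 0.585 and 0.409 in the pair at 4 h and 0.425 at 8 h, so that Per1 had more counts than Per2 in the 1 h library alone. Cry1 relative to Cry2 was 0.158 in the control and 0.139 at 1 h, then 0.238 and 0.261 in the pair at 4 h and 0.368 at 8 h. Nr1d1 relative to Nr1d2 stayed between 0.118 and 0.174, with both genes at their lowest at 8 h.

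**Figure D3:**
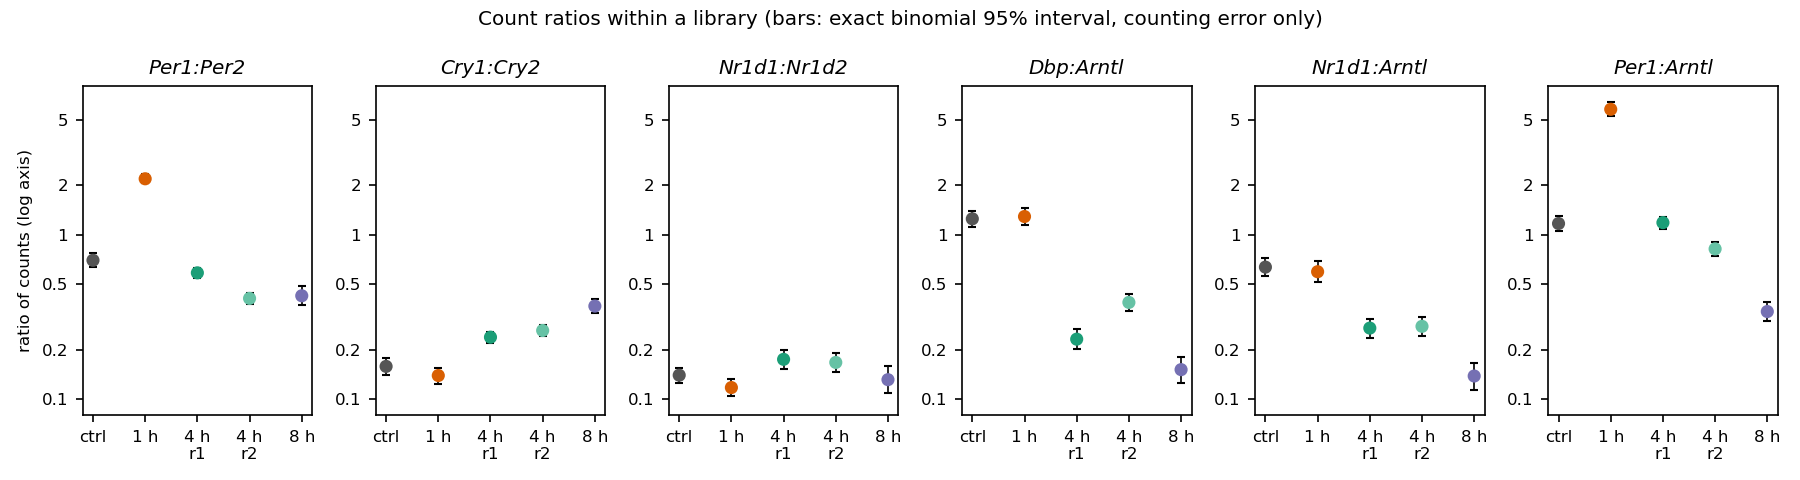
Ratio of the counts of 2 clock genes in each library (log axis; ctrl, control; r1 and r2, replicates at 4 h), with exact binomial 95% intervals that cover counting error only. Dbp:Arntl drops from 1.25 in the control to 0.151 at 8 h and Per1:Arntl is highest at 1 h (5.77), while Nr1d1:Nr1d2 stays between 0.118 and 0.174.

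Divided by exon length, the levels of the genes can be set in order within a library, in CPM per kb of exon. In the control the order was Nr1d2 (25.8), Cry2 (17.8), Dbp (12.8), Clock (12.3), Per2 (8.78), Per3 (6.96), Per1 (6.37), Nr1d1 (6.34), Cry1 (5.33) and Arntl (4.09). Neighbours whose counting intervals overlapped were Dbp with Clock, Per3 with Per1, Per1 with Nr1d1, and Nr1d1 with Cry1. At 1 h Per1 came first (29.9), ahead of Nr1d2 (27.3) and Cry2 (24.0). At 4 h Cry2 (31.3 and 23.6) and Per2 (21.6 and 17.9) led in both replicates and Per3 was last (3.63 and 2.93). At 8 h Clock (14.5) and Cry2 (14.4) led with overlapping intervals, and Per1 (3.22), Dbp (2.69), Per3 (2.54) and Nr1d1 (2.39) came last, each overlapping its neighbour. Arntl, last in the control, was thus above these 4 genes at 8 h (7.08). The lengths are of all annotated exons of a gene, so genes with long exons that are little used come out low.

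The pair at 4 h is the sole measure of replicate spread. Replicate 1 was higher than replicate 2 for all clock genes but Dbp. The replicates were 1.73-fold apart for Per1, further than 92.3% of the 12455 better covered genes, and 1.40-fold apart for Dbp, further than 82.6%. Cry2 was 1.33-fold apart, Per3, Per2, Cry1 and Arntl between 1.20-fold and 1.24-fold, and Nr1d1, Nr1d2 and Clock between 1.09-fold and 1.17-fold, beside a median of 1.14-fold over those genes. The early response genes were also higher in replicate 1, with Fos at 519 against 70.4 CPM and Npas4, a transcription factor induced by calcium influx in neurons, at 130 against 4.92 CPM. Choroid plexus markers were near 0 in replicate 1 (Kcne2 0.178 CPM) and thalamic markers highest there. The part of tissue composition in the clock values of replicate 1 was not tested. Without replicate 1 the log2 differences of 4 h from the control were 1.02 for Per2, -1.24 for Per3, 1.13 for Cry1, 0.41 for Cry2, 0.77 for Arntl, 0.18 for Clock, -0.43 for Nr1d1, -0.68 for Nr1d2 and -0.92 for Dbp, each in the same direction as with both replicates. Apart from Per1 and Cry2, whose folds of 1.19 and 1.33 in replicate 2 are under 1.5, each gene past 1.5-fold in replicate 1 was past it in replicate 2 as well, in the same direction.

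**Figure D4:**
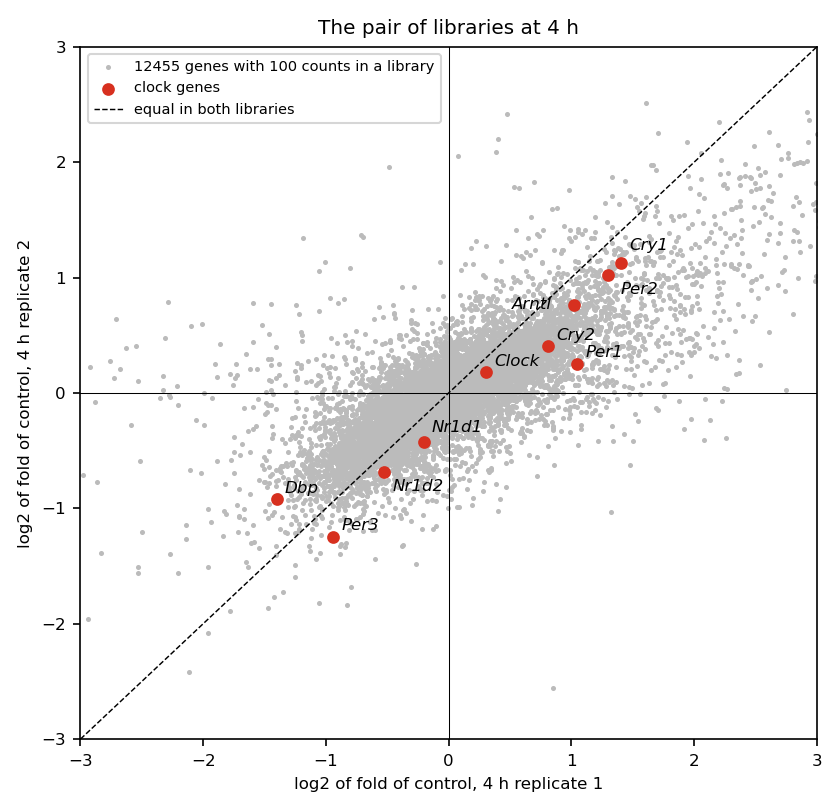
Log2 of the fold of control in replicate 1 (x axis) and replicate 2 (y axis) at 4 h for the clock genes (red, named) among the 12455 genes with at least 100 counts in a library (grey; genes beyond 3 on an axis are not drawn). Both axes share the control library; all clock genes but Dbp lie below the dashed line of equal levels, Per1 furthest at 1.73-fold.

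The promoter windows of RefSeq (GRCm38.p6) were searched on both strands for the elements of the loop, in 13 windows of 9 clock genes; Per2 was not matched. The E-box CACGTG was in 7.15% of all 32851 windows, and among the clock genes in Per1 and Cry1. The E-prime box CACGTT was in 4.69% of all windows, and in Cry1, Cry2 and Nr1d1. The full cAMP response element TGACGTCA was in 1.79% of windows and in none of the 13, and its part TGACG, which it contains, in 20.8% and in Per1, Cry1 and Cry2. The D-box TTATGTAA was in 0.938% of windows and in Per3, and its form TTACGTAA in 0.119% and in none of the 13. The receptor core AGGTCA was in 16.3% of all windows and in Per1, Arntl, Clock and Nr1d2. Of the 4 genes lowest at 8 h relative to the control, Per3 had a D-box, Nr1d1 an E-prime box, Nr1d2 a receptor core and Dbp none of these letters in its window. The search took exact letters from 250 bases before to 50 bases after the start. Absence from a window therefore does not mean that the gene lacks the element.

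Further genes of the clock, 21 in all, were measured as a wider list. None of the 21 passed an adjusted p of 0.05 in the edgeR test at 1, 4 or 8 h, and at an unadjusted p under 0.05 there were 4 higher and 0 lower at 1 h, 6 higher and 3 lower at 4 h and 1 higher and 3 lower at 8 h, where 2.42%, 11.6% and 4.51% of all genes had such a p in either direction. Their median log2 fold change was -0.03, 0.22 and -0.07. By the 1.5-fold size 4 were higher at 1 h (Ciart, Nfil3, Noct and Usp2) and 1 lower, against 10.5% and 8.77% of all genes. At 4 h 3 were higher and 4 lower, against 9.88% and 6.09%, and at 8 h 3 and 3, against 13.8% and 8.66%. The lower count at 1 h and the higher count at 8 h are thus near or below these shares. Nfil3, a repressor that competes with DBP at D-boxes, stood at 6.93 CPM in the control and 55.8 at 1 h, then 101 and 23.3 in the pair at 4 h and 10.8 at 8 h. It was thus above the control in all 4 libraries after kainic acid, though the replicates at 4 h were far apart (adjusted p = 0.357 at 4 h). Ciart, a repressor of CLOCK and ARNTL, stood at 11.2, 59.2, 18.5, 7.62 and 2.68 CPM, or 5.29 times the control at 1 h and 0.239 times at 8 h (adjusted p = 1 for both). As with Per1, the 1 h library was the highest and the 8 h library the lowest. Noct (nocturnin), a rhythmic phosphatase, stood at 38.7, 79.9, 185, 102 and 51.9 CPM (adjusted p = 0.276 at 4 h). Hlf and Tef are D-box activators of the same family as Dbp. Hlf stood at 71.4, 65.8, 60.5, 40.6 and 34.4 CPM and Tef at 403, 337, 221, 232 and 215 CPM, and the log2 fold change of Tef was -0.83 at 4 h (adjusted p = 0.259) and -0.91 at 8 h (adjusted p = 0.882). The D-box activators Dbp, Tef and Hlf thus all stood below the control in the 3 later libraries.

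**Figure D5:**
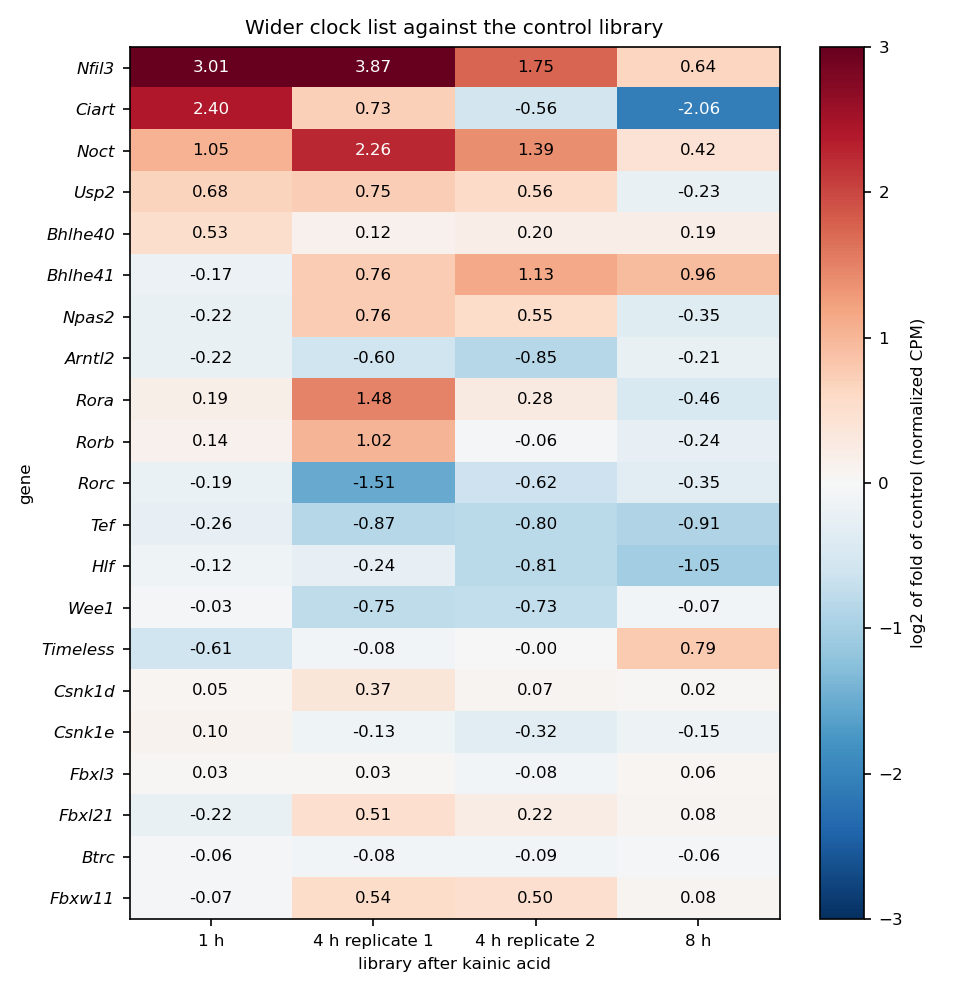
Log2 of the fold of control of the 21 genes of the wider clock list (rows) in the 4 libraries after kainic acid (columns), printed in the cells; the colour scale ends at 3, which Nfil3 exceeds. Nfil3 and Ciart are highest among them at 1 h, Tef and Hlf are below 0 in every library, and the casein kinases and F-box genes in the lower rows are mostly near 0.

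Genes that answer to neuronal activity and to stress hormone were measured beside the clock genes, since both kinds of signal are known to act on Per1. Of 10 early response genes, 10 were at least 1.5-fold above the control at 1 h, 4 at 4 h in both replicates and 2 at 8 h, when 3 were below it. Over all genes 10.5%, 9.88% and 13.8% were higher and 8.66% lower at 8 h by this size. Of the better covered genes 4.98%, 6.92% and 5.56% were higher and 5.48% lower at 8 h. The 2 higher genes at 8 h are thus near the share over all genes and above that of the better covered ones. In the edgeR test 0 of these 10 passed an adjusted p of 0.05 at any time point, and 10, 3 and 0 were higher at an unadjusted p under 0.05 at 1, 4 and 8 h, where 2.42%, 11.6% and 4.51% of all genes had such a p in either direction. Arc, a synaptic protein, stood at 148 CPM in the control and 2022 at 1 h, then 2593 and 928 in the pair at 4 h and 152 at 8 h. Of 10 genes induced by glucocorticoids, 5 were higher at 1 h, 6 at 4 h and 2 at 8 h, when Tsc22d3 and Ddit4 were lower, against the same shares over all genes as given for the clock genes. None of these 10 passed an adjusted p of 0.05, and 4, 7 and 2 were higher at an unadjusted p under 0.05, with 1 lower at 8 h. Sgk1, a kinase of this list that also answers to activity, stood at 119, 397, 416, 343 and 115 CPM. Fkbp5, a chaperone of the glucocorticoid receptor, stood at 71.8, 75.1, 95.3, 118 and 104 CPM, and Tsc22d3 at 115, 158, 164, 142 and 60.3 CPM. Tsc22d3 and Per1 were thus both lowest at 8 h, whereas Cdkn1a and Mt2 of the same list then stood at 3.343 and 2.265 times the control. The part of either signal in the clock genes was not tested.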

How the data were processed

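The authors prepared libraries from hippocampal total RNA with a stranded kit and deposited raw counts of reads per gene, without normalization. The summary lines of the files (reads on no feature 24.7% to 33.1% of the deposited reads, ambiguous reads 1.26% to 1.52%, reads aligned more than once 9.67% to 11.6%) were kept out of all totals and tests. The submitters' processing notes name STAR 2.5.1b, HTSeq and the build GRCm38.p4. Neither the annotation release nor the strand setting is stated there or in the labels. The counts join all exons of a gene. All 10 clock genes were found with the same identifier version in GENCODE M21, the source of positions and exon lengths.

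The tests used edgeR 4.0.16 in R 4.3.3. filterByExpr left 19768 genes, TMM factors lay between 0.924 and 1.06, and a quasi-likelihood fit of the 4 conditions to all 5 libraries had 1 residual degree of freedom, which the 4 h replicates supply (common dispersion 0.0565, prior degrees of freedom 4.42). Single libraries are thus assumed to vary like that pair. P-values were adjusted over all genes tested (Benjamini-Hochberg, threshold 0.05), with a prior count of 2 behind the log2 fold changes. Levels are CPM with TMM factors; a fold of control is the ratio of 2 such levels, with exact 95% intervals (Poisson for levels, binomial for folds and ratios) that cover counting error only. Total gene counts per library were 16612225 to 19109204, at which a floor of 3 counts equals 0.151 to 0.178 CPM. The alternatives tried were size factors by median of ratios, scaling by library size alone, no filter, a prior count of 0.5, DESeq2 1.42.0, limma-voom (limma 3.58.1) and leaving out each replicate at 4 h. The scripts were tested on simulated data. Python 3.11.15 with matplotlib 3.10.9 drew the figures.

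The clock genes and all lists were chosen with earlier results of these data known. All 10 clock genes are named; of the wider list those with at least 50 counts in a library and 2-fold from control were to be named, and Tef and Usp2 were added after their values were seen. The result of 1 further marker list is not reported here.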

Additional observations from a re-analysis of the deposited data

Results flagged for a closer look

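Per1 lay on opposite sides of the control at 1 h and 8 h, at 4.70 and 0.506 times its level, each from a single library. The edgeR difference of 8 h from 1 h was -3.21 on the log2 scale (SE 0.43, 95% interval -4.28 to -2.15, adjusted p = 0.506), in a comparison chosen after seeing the data. No group held 4 or more libraries, so single libraries were not tested for standing apart from their group.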

How the results depend on the processing

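Each of the 10 clock genes was refitted in 5 comparisons under 8 alternatives. Of 400 values, 360 kept their direction and, where a test was made, their side of the threshold. A part of these 360 was fixed in advance and is no measure of stability. Without a replicate at 4 h, the comparisons of 1 h and 8 h with the control still use the same libraries. The alternative prior count left every adjusted p as in the main fit, so no value could cross the threshold under it. A further 35 values passed the threshold in addition (23 with no filter, 6 with library size alone, 6 with DESeq2). The remaining 5 changed sign. Under library size alone these were 8 h against 4 h for Arntl (0.037) and Clock (0.139). Without replicate 1 at 4 h they were 4 h against 1 h for Cry2 (-0.0207) and 8 h against 4 h for Arntl (0.0252) and Clock (0.0573). Without replicate 2 these values were 0.385, -0.234 and -0.0664. Library size alone moved the median of all genes by -0.11 on the log2 scale at 4 h.

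Over all genes, edgeR passed 0 at 1 h, 1 at 4 h, 0 at 8 h, 1 for 4 h against 1 h and 0 for 8 h against 4 h. In the same order library size alone passed 57, 237, 22, 67 and 120, no filter 285, 1300, 279, 725 and 957, and DESeq2 49, 233, 32, 103 and 132. Median-of-ratios factors and limma-voom passed 0 in every comparison, so that both the 4 h gene and the 4 h against 1 h gene were lost. The cause was not tested. Of the clock genes past 1.5-fold above the control, added after seeing the data, 1 in place of 2 was counted at 1 h under median-of-ratios factors, library size alone and no filter, since Per2 lies at the limit. At 4 h 3 were counted without replicate 1 and 5 without replicate 2, when Per1 and Cry2 join. Past 1.5-fold below the control at 4 h, 3 in place of 2 were counted under library size alone and without replicate 1, when Nr1d2 joins, and 2 without replicate 2. The counts at 8 h (2 higher, 5 lower) and the lower count of 0 at 1 h were the same under these 5 alternatives. Leaving out a replicate at 4 h changes no library compared in these counts, so only the alternatives of scaling and filter bear on them. With a replicate at 4 h left out no degree of freedom remains, so no test was made and only directions were compared, with the 3 changes given above. No paired analysis was possible because the single libraries carry no replicate number. The values at 1 h and 8 h rest on 1 library each and on 1 control library.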
